A study of Homo sapiens with 8 samples.

Results

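The metallothioneins of the array were MT1A, MT1B, MT1E, MT1F, MT1G, MT1H, MT1M, MT1X and MT2A, 9 genes of 43317 distinct gene names and 12 of 58201 probes on the array. The members were chosen by gene name, and the family was taken up because MT1F was lower than mock with miR-490-3p and not with miR-490-5p on these arrays, so every value of MT1F and every value of the miR-490-3p array is given as a description, with no test. MT1F also stands among the candidate miR-490-3p targets that the study selected with the same array, and its value there is not independent evidence. For these candidates the study also required a binding site predicted by TargetScan, which it lists for MT1F, and higher expression in TCGA colon cancer than in normal colon.

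Metallothioneins are small, cysteine-rich proteins that bind zinc, copper and cadmium in thiolate clusters and buffer free zinc in the cell. Their genes lie side by side as near copies, and metal-loaded MTF1 switches them on through short metal response elements in their promoters, while glucocorticoids and oxidative stress also raise them. MT2A is the broadly expressed isoform, and the MT1 genes differ from tissue to tissue.

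The study hybridised 8 human 2-colour arrays, each with RNA of untransfected mock cells in Cy3 and RNA of transfected cells of the same line in Cy5. The renal cancer lines A498 and 786-O received either strand of the miR-139 duplex, named miR-139-5p and miR-139-3p (1 array per strand and line). 2 siRNAs against GINS1, a subunit of the DNA replication helicase, were transfected into the MDA-MB-231 breast cancer line (1 array per siRNA), and the colorectal cancer line HCT116 received either miR-490-5p or miR-490-3p (1 array each). Lipofectamine RNAiMAX was the carrier throughout and the mock cells are labelled as having had no transfection, so the effects of the lipid and of the RNA cannot be told apart. The dyes were never swapped, and p-values measure only the spread between arrays that differ by cell line or by siRNA. The array identifiers give 1 mock code for both arrays of each cell line, so the pair of arrays of a line may share its mock RNA.

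Between 24980 and 29685 probes per array were well above background, which is the scanner software's own flag, in at least 1 channel. The median ratio over these probes lay between 0.00 and 0.02 on the log2 scale on every array. GINS1 was at 40.3% of mock with siRNA 1 and at 26.4% with siRNA 2. Of the line markers, EPCAM, CDH1 and CDX2 were highest in HCT116, and PAX8, PAX2 and LHX1 were highest in the renal lines. VIM and ZEB1 were well above background in all 4 lines and highest in 786-O. PGR was not well above background in any line. VIM, ZEB1 and PGR therefore did not set MDA-MB-231 apart. VIL1, an intestinal marker, was not well above background in any line, CDX1 did not set HCT116 apart, and ESR1 was dim but above background in all 4 lines.

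The transfected miRNAs are shown because the comparisons turn on their strands. Mature sequences are from RefSeq (GRCh38.p14), 5′ to 3′, with the seed (bases 2 to 8) in capitals. No pair among them shares a seed.
miR-490-5p: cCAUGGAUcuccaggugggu
miR-490-3p: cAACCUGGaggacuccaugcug
miR-139-5p: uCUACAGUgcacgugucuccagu
miR-139-3p: uGGAGACGcggcccuguuggagu
The letters that pair with the miR-490-3p seed, CCAGGTT, were in 0.39% of all probes and in 0 of the metallothionein probes. The same-sense letters of that seed, AACCTGG, were in 0.514% of all probes and in the probes of MT1F and MT1X and in MT1E probe 3. These same-sense letters are not a seed match, and a probe covers only 60 bases of its transcript.

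The 12 member probes lie on chromosome 16 between positions 56643332 and 56718021 (hg19), a stretch of 74690 bases. In that order stand MT2A, the 3 probes of MT1E, MT1M, MT1A, the 2 probes of MT1B, MT1F, MT1G, MT1H and MT1X. Probes of a gene are numbered here by position. The MT1F probe spans chr16:56693077-56693136, the MT1X probe chr16:56717962-56718021 and the MT2A probe chr16:56643332-56643391. The MT1A probe spans 604 bases of genome, so it crosses an exon junction. Exon and UTR boundaries of the other probes were not used here.

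The copies are close enough that a probe may capture its neighbours. The MT1F and MT1X probes matched at 49 of 60 bases when laid over each other without gaps, and the MT1F and MT1H probes at 46 of 60. The last 30 bases of these probes are shown because MT1F and MT1X, whose probes match at 49 bases, had ratios of opposite sign with miR-490-5p. Capitals mark bases that differ from the MT1F probe, 6 in each of the others.
MT1F: cagagagacatgtacaaacctggatttttt
MT1X: TagagCAacCtAtaTaaacctggatttttt
MT1H: cagaATgacaCgtaAaaTccAggatttttt
The second MT1E probe matched the second MT1B probe at 49 of 59 overlapping bases and the MT1L probe at 38 of 42. MT1E probes 2 and 3 overlap by 30 bases, and 1 base differs there (capital).
MT1E probe 2: atgtgggaacagctcttctcccagatgtaa
MT1E probe 3: atgtgggaacagctcttctcccagatgtTa
The annotation lists MT1E probe 3 also for the MT1M and MT1JP transcripts, and the MT1A probe also for the MT1M transcript. It lists the MT1HL1 probe also for the MT1H transcript. The MT1A probe matched the MT1HL1 probe at 42 of 46 bases, with a shared run of 27, and the first MT1B probe matched it at 33 of 36. MT1E probes 2 and 3, both MT1B probes and the MT1A, MT1F and MT1X probes are therefore uncertain as measures of a single gene. No probe outside the metallothioneins shared a run of 20 bases with any of these probes.

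**Figure D1:**
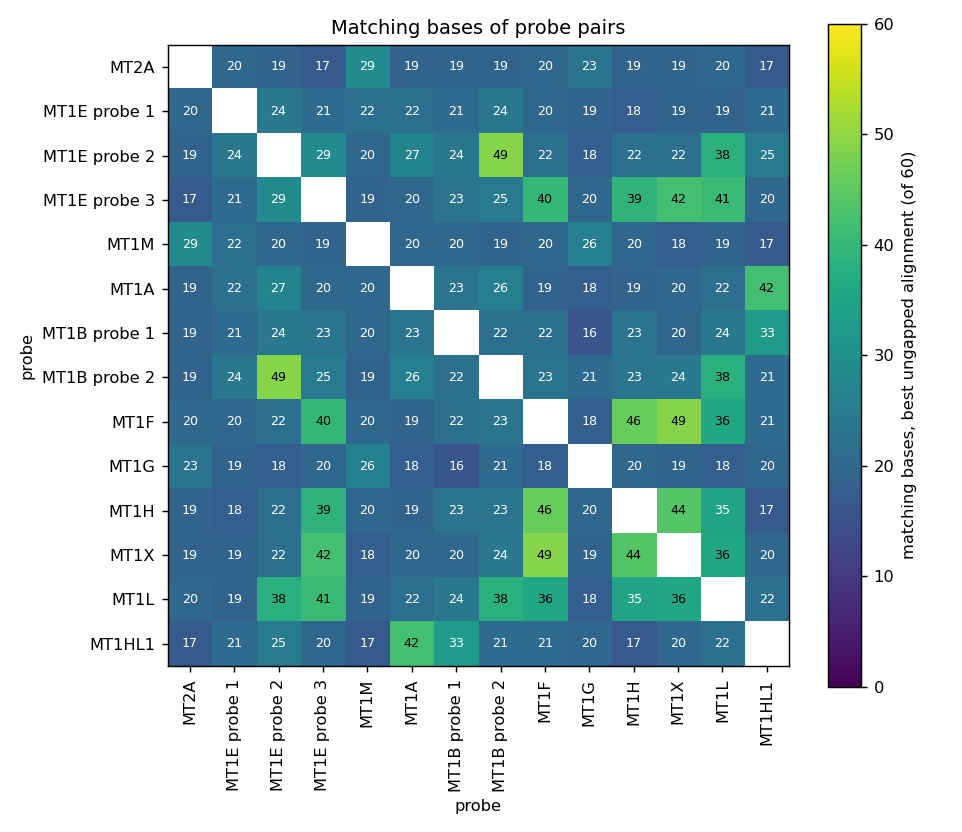
Bases that match between each pair of member probes, and the MT1L and MT1HL1 probes, in the best ungapped alignment of their 60 bases (colour scale and printed number, each axis a probe). The brightest cells are MT1F with MT1X and MT1E probe 2 with MT1B probe 2, at 49 bases each.

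In untransfected cells the family was highest in HCT116. Each of the 10 member probes that were well above background in some mock channel had its highest mock level in HCT116, and 8 of the 10 had their lowest in A498. MT1X was lowest in MDA-MB-231, and the first MT1E probe, below background in both renal lines, has no order there. Levels here are log2 Cy3 intensities after quantile normalization of the 8 mock channels, each probe is compared only with itself, and no test was run because both mock channels of a line may hold 1 extract.

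MT2A, the common isoform, measured 13.91 and 13.86 for the A498 mock channels, 14.35 and 14.29 for 786-O, 14.26 and 14.22 for MDA-MB-231, and 15.79 and 15.79 for HCT116. The order was HCT116, 786-O, MDA-MB-231, A498, and the pairs of channels did not overlap. HCT116 exceeded A498 by 3.73-fold on this scale, with no spot flagged as saturated. The equal HCT116 values come from quantile normalization, which gives spots of equal rank the same value, so they show nothing of the spread. Before it, the HCT116 mock signals were 63288 and 65010 units above local background, and those of A498 were 10310 and 9506. These signals are not scaled between arrays, and they lie further apart than the fold after quantile normalization.

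MT1F measured 6.30 and 6.26 for A498, 7.09 and 7.21 for 786-O, 7.46 and 7.47 for MDA-MB-231, and 7.83 and 7.77 for HCT116. Its levels rose in that order of lines without overlap, and HCT116 was 2.87-fold above A498, a span of 1.52 on the log2 scale that became 2.11 without background correction and 2.76 with the scanner's processed signal. In A498 its signal was only 23.7 and 20.1 intensity units above the local background.

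MT1X broke the order of the family. It measured 7.07 and 7.13 for A498, 8.47 and 8.50 for 786-O, 6.81 and 6.82 for MDA-MB-231, and 9.56 and 9.55 for HCT116, so that MDA-MB-231 and not A498 was lowest. HCT116 was 6.67-fold above MDA-MB-231, or 2.74 on the log2 scale, against 3.59 with the scanner's processed signal.

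MT1M, an isoform found in liver, separated the renal lines. It measured 5.74 and 5.76 for A498, where it was not well above background on either array, 9.68 and 9.68 for 786-O, 9.83 and 9.76 for MDA-MB-231, and 12.38 and 12.36 for HCT116. Its level was at least 92.3-fold higher in HCT116 and at least 14.3-fold higher in 786-O than in A498. These bounds set the mean of the bright line against the lowest signal that counted as well above background, or the probe's own where that was higher.

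The MT1E probes disagreed in A498. Probe 3, which is also annotated to MT1M, was at 5.82 and 5.86 there, not well above background, and at least 29.6-fold higher in 786-O. The second probe measured 9.55 and 9.63 for A498, 11.41 and 11.41 for 786-O, and was well above background in every mock channel. The first probe was dim, reached 6.54 and 6.56 in HCT116, and was not well above background in either renal line.

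The MT1A and MT1B probes followed MT2A. HCT116 was 5.79-fold above A498 for MT1A, 8.89-fold for the first MT1B probe and 4.58-fold for the second. On the log2 scale these spans were 2.53, 3.15 and 2.20, and scaling to the 75th percentile made them 3.39, 3.93 and 2.97. 786-O and MDA-MB-231 overlapped for the first MT1B probe only among these. The MT1G and MT1H probes were not well above background in either channel of any array, and no ratio is read from them. The MT1HL1 probe, which the annotation lists also for the MT1H transcript, was well above background on all 8 arrays.

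**Figure D2:**
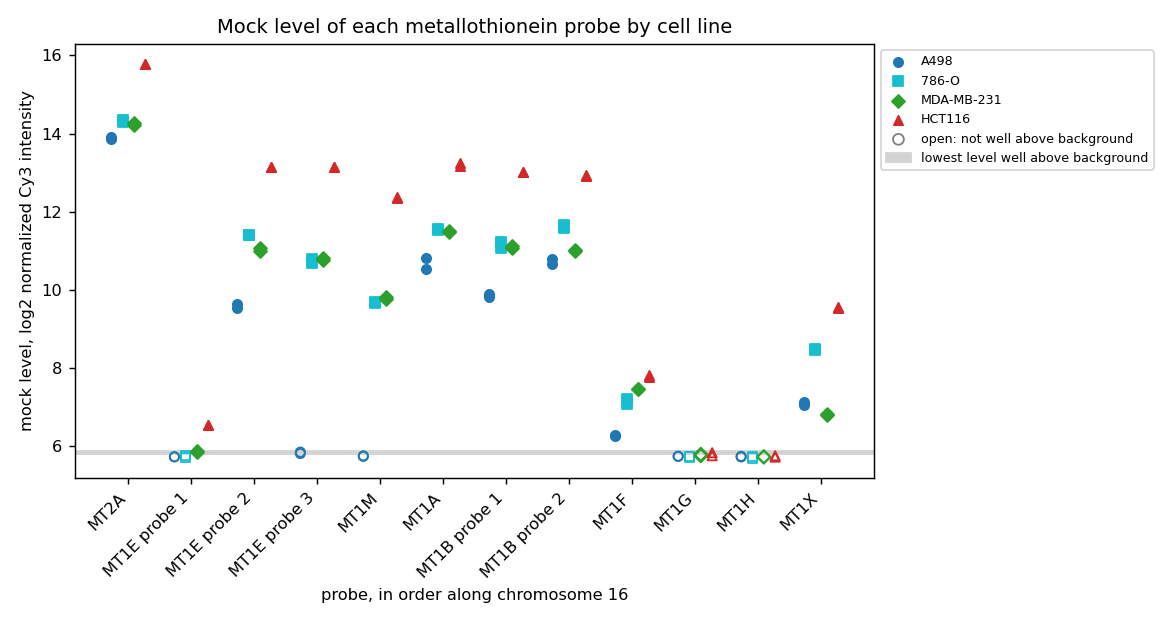
Mock level of each member probe (vertical axis, log2 normalized Cy3 intensity) in order along chromosome 16, with 2 mock channels per cell line as points. Filled points were well above background, open points were not, and the grey band is the lowest level that counted as well above background. HCT116 is highest for all 10 detected probes, while MT1M and MT1E probe 3 sit at background in A498.

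In HCT116, most of the family read below mock with either strand of miR-490. Ratios are log2 of transfected over mock after loess normalization. With 1 array per strand there is no replicate and no test, and a probe was counted when its log2 ratio reached 1 in size. With miR-490-3p, 9 of the 10 detected member probes were at or below -1, where 0.578% of all probes were, and 0 were at or above 1 (0.346% of all probes). Their median was -1.23 beside 0.01 over all probes. This array belongs to the choice of the members, and nothing is read from that count. With miR-490-5p, 1 of 10, MT1M, was at or below -1 (0.963% of all probes), 0 were at or above 1 (0.265%), and the median was -0.83 beside 0.01.

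MT1F parted from the rest. Its log2 ratio was 0.24 on the miR-490-5p array but -1.24 on the miR-490-3p array, that is 118% and 42.5% of mock. Its mean signal above local background, before normalization, was 239.7 in mock and 316 in transfected cells on the miR-490-5p array, and 221 and 77.5 on the miR-490-3p array. MT1F was the only detected member probe above 0 with miR-490-5p. The family was chosen by this pattern of MT1F, so nothing is read from it.

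MT1X had the lowest ratio of the family with miR-490-3p, -1.53 or 34.5% of mock. It was also low with miR-490-5p, at -0.92 or 52.9% of mock. Its probe shares more letters with that of MT1F than any other member's does, and the pair parted by direction with miR-490-5p.

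MT1M read -1.09 on the miR-490-5p array against -1.49 on the miR-490-3p array. MT2A read -0.97 and -1.14, or 50.9% and 45.5% of mock. With miR-490-5p MT1M lay just inside the threshold of 1 and MT2A just outside.

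The MT1B probes read -0.86 and -0.94 after miR-490-5p, against -1.20 and -1.35 after miR-490-3p. MT1E probes 2 and 3 were at -0.81 and -0.80 and at -1.22 and -1.28. MT1A was at -0.76 and -1.03, just inside the threshold with miR-490-3p. The first MT1E probe, which is dim, was at -0.43 and -0.47 and stayed outside it. In the scanner log ratio it was at -1.06 and -1.09.

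All 10 detected member probes had a lower ratio with miR-490-3p than with miR-490-5p, as 50.1% of all probes did. These differences use the array that belongs to the choice of the members, and several of the probes match each other closely. Nothing is read from that count. Without MT1F the difference of the log2 ratios ran from -0.62 for MT1X to -0.04 for the first MT1E probe. For MT1F it was -1.48. MT1F was the 1 member probe of 10 whose difference reached 1 in size, where 0.383% of all probes were at or below -1 and 0.785% at or above 1. The family was chosen because MT1F fell with miR-490-3p only, so nothing is read from its place among all probes. The SD of this difference over all 26881 probes well above background on both arrays was 0.31, with a median of 0.00. Both arrays share their dye order and perhaps their mock, so a value that both have in common is no sign of agreement between the strands.

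**Figure D3:**
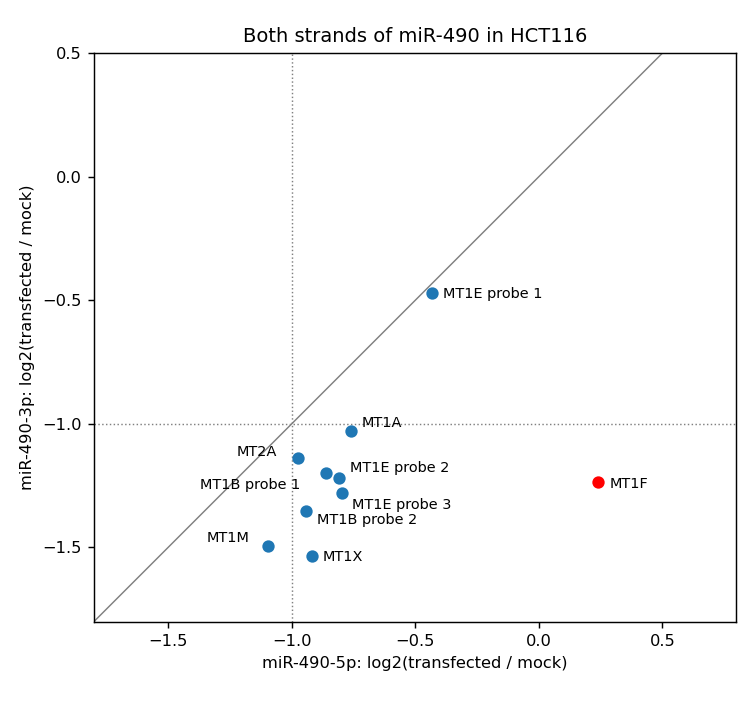
Log2 ratio of transfected over mock in HCT116 for each detected member probe, miR-490-5p on the horizontal and miR-490-3p on the vertical axis, with 1 array each. Dotted lines mark -1 and the solid line marks equal ratios: MT1F (red) lies at 0.24 and -1.24, and the other 9 probes lie below 0 on both axes.

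Other metallothionein loci on the array were read beside the members. MT1L, a copy whose product is cut short, read -0.87 on the miR-490-5p array against -1.21 on the miR-490-3p array. The MT1HL1 probe, placed on chromosome 1, was at -0.77 and -1.13. It is also annotated to the MT1H transcript of chromosome 16, so its value cannot be assigned to either locus alone. MT3, the brain isoform, was at 0.10 and 0.09. MT3 was above 0 on all 8 arrays (0.09 to 0.21), and a dye preference of that probe and a change in its RNA cannot be told apart without swapped dyes. MT4 was not well above background on any array.

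In the renal lines, no metallothionein passed the test with miR-139. MT1F took part in no test. With miR-139-5p, 0 of 6 tested member probes were called by limma at an adjusted p under 0.05, where 0.0129% of all probes were, and 0 had an unadjusted p under 0.05. Beside a test, all probes are those that were tested, 23282 for miR-139-5p. MT2A was at -0.02 in A498 and 0.32 in 786-O, and its fitted log2 ratio was 0.15 ± 0.09 (SE, n = 2; 95% interval -0.09 to 0.39; adjusted p = 0.9999 by limma). Every SE given here comes from the limma fit, which draws its spread from all groups of 2 arrays and from all probes. It is not the SE of the 2 arrays alone, and the SD of the 2 MT2A ratios was 0.24. MT1X was at -0.06 and 0.02. MT1F was at 0.03 and 0.09. Of the 6 fitted ratios 4 were below 0, and 0 were under median centring or without the A498 array. The member medians were -0.03 in A498 and 0.06 in 786-O.

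With miR-139-3p, 0 of 7 tested member probes were called (0.0% of all probes), and 1, the first MT1B probe at -0.18 ± 0.06 (SE, n = 2), had an unadjusted p under 0.05 in the limma fit, as 4.44% of all probes did. All 7 fitted ratios were below 0, with a median of -0.13 beside 0.00 over all probes, of which 48.7% were below 0, but 6 of the 7 were above 0 when arrays were centred on their median in place of loess (median 0.08). The 95% intervals of the 7 lay within -0.38 to 0.21. MT2A was at -0.14 in A498 and -0.03 in 786-O, and MT1F at -0.06 and -0.09. MT1M, detected only in 786-O here, read -0.13 on the miR-139-5p array against -0.22 on the miR-139-3p array.

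Between the strands of miR-139, 0 of 6 tested member probes were called (limma, 0.0% of all probes called, and 0 of the 6 with an unadjusted p under 0.05). The differences, miR-139-3p minus miR-139-5p, were all below 0, from -0.24 for MT2A to -0.07 for the second MT1B probe. Their median was -0.17 beside 0.00 over all probes, of which 50.7% were below 0. All 6 stayed below 0 under median centring, and 5 of 6 did without the miR-139-3p array of A498. Several of these probes match each other closely, so they are not independent. For MT2A the 95% interval was -0.57 to 0.10.

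In MDA-MB-231, 0 of 9 tested member probes were called with si-GINS1 (limma, 6.97% of all probes called), and 4 had an unadjusted p under 0.05, as 25.95% of all probes did. MT1M came nearest. It was at -0.24 with siRNA 1 and -0.57 with siRNA 2, a fitted -0.41 ± 0.10 (SE, n = 2; adjusted p = 0.0834 by limma). The SD of its ratios on the 2 arrays was 0.24. Without siRNA 1 the fit called 4 member probes, namely MT1M at -0.57 and MT1E probes 2 and 3 at -0.39 and -0.43, lower than mock, and MT1X at 0.25, higher. That fit called 23.5% of all probes, and it takes the spread of the lone siRNA 2 array from the other groups. With both siRNAs the second MT1E probe stood at -0.24 ± 0.08 (SE, n = 2; adjusted p = 0.150 by limma) and MT1X at 0.14 ± 0.07 (SE, n = 2; adjusted p = 0.261 by limma). MT2A was at -0.07 and 0.00. Of the 9 fitted ratios 8 were below 0, as 46.9% over all probes were, but 1 was under median centring, which called MT2A (0.68) and MT1X (0.36) higher and put MT1M at 0.03.

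MT1F took opposite directions with the siRNAs, 0.54 with siRNA 1 and -0.41 with siRNA 2. Its signal above local background was 183 in mock and 410.1 in transfected cells with siRNA 1, and 188 and 152 with siRNA 2. No other member probe reached 0.3 above mock with either siRNA. The member medians were -0.08 and -0.22.

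**Figure D4:**
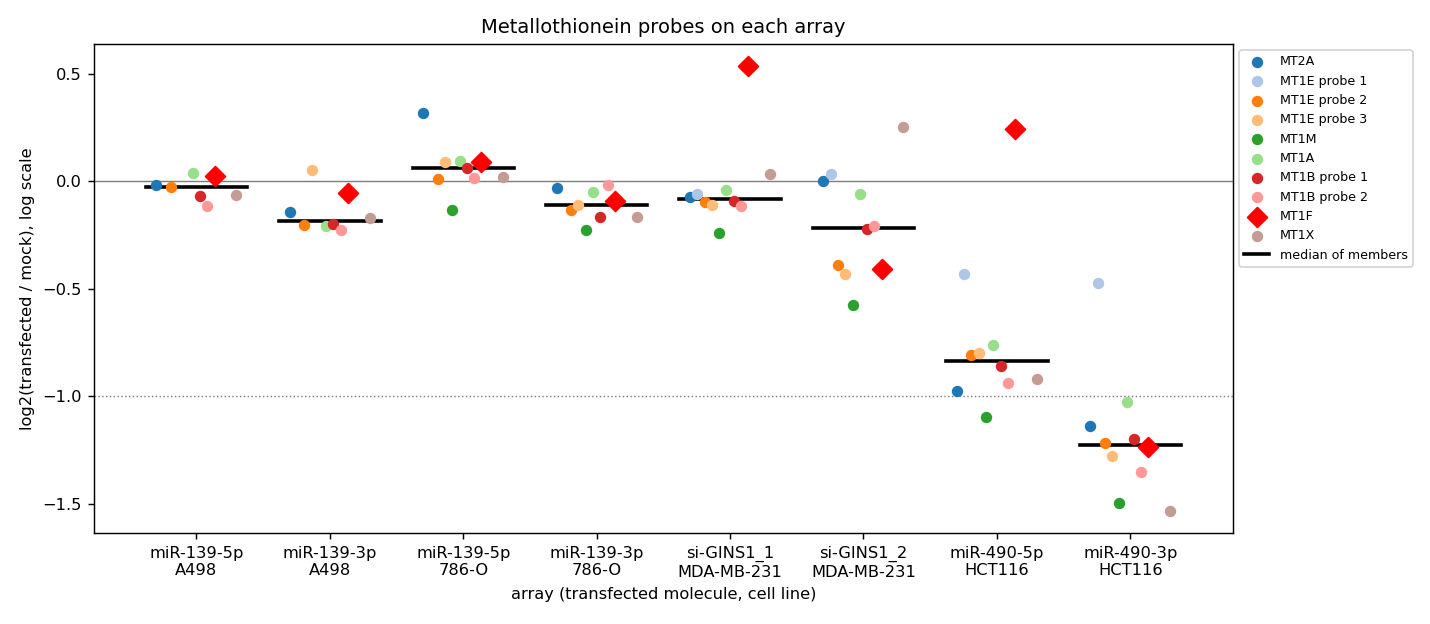
Log2 ratio of transfected over mock (vertical axis) for each detected member probe on each of the 8 arrays, with MT1F as a red diamond and the median of the members as a black line. The medians lie between -0.22 and 0.06 outside HCT116, and at -0.83 and -1.23 on the HCT116 arrays, while MT1F is at 0.24 with miR-490-5p.

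The genes around the family were read from 4 lists, each gene by its brightest probe. Of the zinc genes (MTF1 and the SLC30 and SLC39 transporters), 20 of 25 were tested with si-GINS1 and 3 were called (6.97% of all probes were), all higher: MTF1, the metal sensor that drives metallothionein transcription, at 0.46 ± 0.06 (SE, n = 2; adjusted p = 0.0284 by limma), SLC30A5 at 0.28 and SLC39A6 at 0.34. With the replicate number as a block, a term shared with the unrelated miR-139 arrays, all 3 lost the call (adjusted p = 0.0679, 0.0787 and 0.0699 by limma). The median of the zinc genes there was 0.25 beside 0.01 over all probes. None of the list was called with either strand of miR-139 or between them. On the miR-490 arrays 0 zinc genes reached 1 in size.

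MTF1 itself read 0.60 after miR-490-5p against 0.10 after miR-490-3p in HCT116. SLC30A1, the zinc exporter that MTF1 also drives, was at -0.52 and -0.66. On the remaining arrays SLC30A1 lay between -0.05 and 0.57.

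Of the 9 copper genes, which handle uptake, export and delivery of copper, 0 were called in any test and 0 reached 1 in size with miR-490. Of the antioxidant genes, 1 of 11 was called with si-GINS1 (6.97% of all probes), NQO1 (a quinone reductase) at -1.10 ± 0.20 (SE, n = 2; adjusted p = 0.0490 by limma). With miR-490-5p SLC7A11, the cystine importer, was at -1.50, the 1 antioxidant gene past the threshold, and it was at -0.45 with miR-490-3p. HMOX1, the haem-degrading stress enzyme, was at 0.83 and 0.77 in HCT116, and at -0.82 in A498 after miR-139-5p against 0.47 after miR-139-3p. In 786-O it was at -0.01 and -0.05. It was at -0.24 with siRNA 1 against 1.13 with siRNA 2 and was not called with si-GINS1.

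Of the 8 glucocorticoid genes, 1 was called with si-GINS1 (6.97% of all probes), DUSP1 (a phosphatase of MAP kinases) at 1.07 ± 0.20 (SE, n = 2; adjusted p = 0.0483 by limma). TSC22D3, which glucocorticoids induce strongly, read -1.77 after miR-490-5p against -0.94 after miR-490-3p. The list's median was -0.02 and -0.06 on these arrays. The 5 list genes called with si-GINS1 kept their direction in the scanner log ratio but were not called there (adjusted p from 0.0835 to 0.290 by limma), nor in the fit of the compared arrays alone. Without a filter DUSP1, NQO1 and SLC39A6 lost the call (0.0814, 0.0825 and 0.0574), without background correction SLC30A5 did (0.127), with offset 10 SLC30A5 and SLC39A6 did (0.164 and 0.0544), and without siRNA 1 SLC39A6 did (0.053). The replicate block also ended the call of DUSP1 (0.0846).

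Over the 8 arrays, which share cell lines and perhaps mock RNA, the genes whose log2 ratios ran most like those of MT2A, out of 16353, were MT1A (Pearson r = 0.98), TMSB10 (0.98), MT1L (0.98), RBCK1 (0.97) and MT1B (0.97). Those most like MT1F were LOC101928451 (r = 0.97), PIP4K2B (0.97), OSBPL2 (0.97), SCAF8 (0.97) and C20orf96 (0.96). MT1F and MT2A themselves had r = 0.49. These values are descriptions, and the HCT116 arrays carry most of the range behind those of MT2A.

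Promoter sequence was at hand from RefSeq (GRCh38.p14) for MT2A, MT1B, MT1H and MT1X among the members. The core of the metal response element was searched on both strands as TGCACNC or TGCGCNC, from 250 bases before the transcription start to 50 after it, and no matches overlapped. MT2A and MT1H held 8 matches each, MT1X held 4 and MT1B held 3. Of all 35116 promoters 29.6% held at least 1 match, 0.0199% held 8 or more, 0.601% held 4 or more and 2.3% held 3 or more. SLC30A1 held 2 and MTF1 held 0. The MT1H probe was not well above background in any line, but the MT1HL1 probe, annotated also to the MT1H transcript, was in all 4. MT2A and MT1X were measured in all 4 lines. The 250 bases before the start are shown for MT2A, MT1X and MT1H, on the plus strand with the matches in capitals.
MT2A, chr16:56608334-56608583: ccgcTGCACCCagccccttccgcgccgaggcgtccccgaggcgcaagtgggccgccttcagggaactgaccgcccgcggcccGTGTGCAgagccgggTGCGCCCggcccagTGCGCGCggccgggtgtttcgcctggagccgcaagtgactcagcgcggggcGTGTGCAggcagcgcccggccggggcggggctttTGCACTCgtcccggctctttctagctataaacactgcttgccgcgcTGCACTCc
MT1X, chr16:56682220-56682469: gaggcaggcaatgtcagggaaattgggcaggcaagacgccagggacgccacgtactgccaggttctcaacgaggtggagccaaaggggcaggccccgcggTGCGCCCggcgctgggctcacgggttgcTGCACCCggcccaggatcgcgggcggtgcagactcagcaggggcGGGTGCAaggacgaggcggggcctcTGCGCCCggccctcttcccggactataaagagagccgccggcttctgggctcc
MT1H, chr16:56669564-56669813: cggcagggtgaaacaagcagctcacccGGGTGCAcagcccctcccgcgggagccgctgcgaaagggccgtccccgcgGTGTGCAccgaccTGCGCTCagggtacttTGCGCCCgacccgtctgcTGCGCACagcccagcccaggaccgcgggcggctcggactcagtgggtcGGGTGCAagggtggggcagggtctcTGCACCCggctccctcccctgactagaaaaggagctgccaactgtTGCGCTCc
MT1H had as many matches as MT2A. A match is a match of letters only, and nothing about binding was measured.

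**Figure D5:**
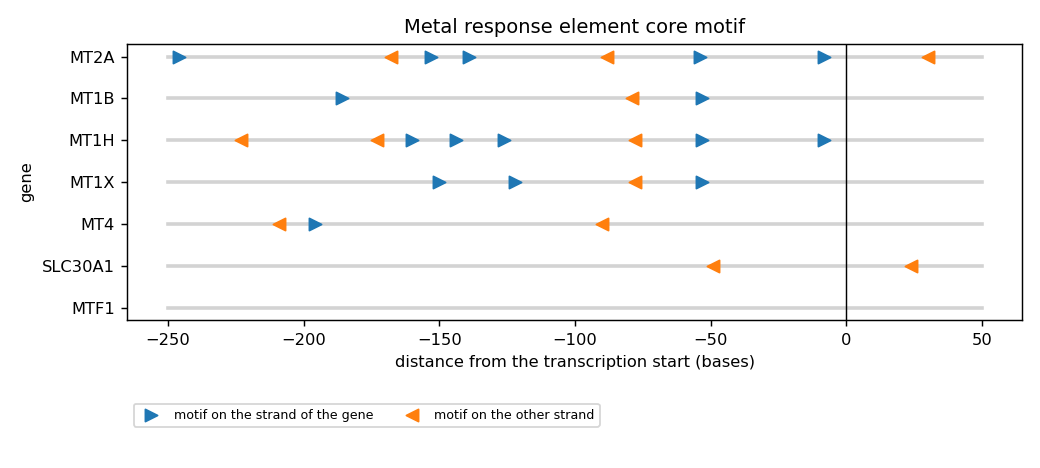
Matches of the metal response element core in the window from 250 bases before to 50 bases after the transcription start (horizontal axis, distance in bases) of each gene with a promoter sequence. Triangles give the strand of the match: MT2A and MT1H hold 8 each, MT1X 4, MT1B and MT4 3 each, SLC30A1 2 and MTF1 none.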

How the data were processed

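Total RNA of mock (Cy3) and transfected (Cy5) cells was hybridised on 8 arrays of 1 slide. The authors deposited scanner output of Agilent Feature Extraction 11.5.1.1 with linear intensity columns, and a log10 ratio of Cy5 over Cy3 that the scanner software had corrected and that equals the series-wide values (largest difference 0). Background was corrected here with normexp (offset 50, which pulls ratios of dim probes toward 0) in limma 3.58.1 under R 4.3.3, ratios were normalized by loess with control spots at weight 0, and spots were averaged per probe. Annotation positions are on hg19. Probes that the scanner flagged well above background, in either channel, on all arrays of a group were tested against 0 in 1 limma fit of 8 arrays (3 residual degrees of freedom), with Benjamini-Hochberg adjustment over all of them and an adjusted p under 0.05 called. The SE of a fitted ratio is the one of that fit, with n the arrays of the group. The number of arrays limits the precision. The miR-490 groups have 1 array each and no test. The miR-139 arrays pair by cell line, which the labels give. The correlation of their deviations was 0.0753 over 22174 probes. Python 3.11.15 with pandas 2.3.3 did the rest. The members and lists were chosen with earlier results of these data known. All member probes were named, as were listed genes by the largest change among those called. Alternatives were other background corrections, offset 10, median centring, no filter, the compared arrays alone, each array left out, a replicate block, removal of each probe's mean over other lines, and other scalings of the mock. The replicate block was the cell line for miR-139. For si-GINS1 it was the replicate number, in a single term shared with the miR-139 arrays. That term ties the difference between the siRNAs to the difference between the renal lines, which are unrelated.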

Additional observations from a re-analysis of the deposited data

How the results depend on the processing

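All 20 member ratios on the HCT116 arrays kept their direction under the scanner log ratio, no background correction, offset 10, median centring and removal of the probe's mean over other lines. The size did not. Under median centring 3 member probes reached 1 in size with miR-490-3p in place of 9, and 0 with miR-490-5p in place of 1, with medians of -0.81 and -0.56. With miR-490-5p the count was 3 under the scanner log ratio (median -0.91), 2 without background correction and 2 with offset 10. With miR-490-3p it was 10 under the scanner log ratio. MT1F with miR-490-3p ran from -1.07 (median centring) to -1.74 (scanner log ratio). In the 53 values of the other arrays the direction was kept in 31 under median centring, a scaling that moved the all-probe median of detected probes up by 0.12 for miR-139-5p in A498 and by 0.15 for siRNA 1, and in 19 after removal of the mean over other lines, a mean that holds the low HCT116 values by construction. With si-GINS1, median centring called 2 member probes. Leaving out an siRNA gave 0 to 4, the 4 without siRNA 1. The replicate block kept 1 of the 5 list genes (NQO1), and called 0 member probes (MT1M -0.41, adjusted p = 0.0654 by limma) and changed no call among the members. No alternative called a member with miR-139 or between its strands. Calls over all probes with si-GINS1 went from 1936 to 75 (scanner log ratio), 2974 (median centring), 350 (replicate block), 0 (only the arrays compared), 6721 (without siRNA 1) and 9471 (without siRNA 2). With miR-139-5p they went from 3 to between 0 and 7, and with miR-139-3p from 0 to between 0 and 13. Probes at or past 1 went from 343 to 2479 with miR-490-5p, from 262 to 2301 with miR-490-3p and from 314 to 2746 for their difference under the scanner log ratio. HCT116 had the highest mock level for 10 of 10 detected member probes under all 4 mock settings, and A498 the lowest by mean for 9 under the main setting and 8 under each alternative, where MT1E probe 1, below background in both renal lines, changed its lowest line. With 75th percentile scaling the span of MT1E probe 2 over the lines went from 3.54 to 4.34 on the log2 scale, and with the scanner's processed signal that of MT1M, at background in A498, went from 6.62 to 12.5. Dim probes limit what can be read: MT1F stood little above background in A498, and the probes named for MT1G and MT1H gave no ratio.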
